A study of Mus musculus with 145 samples.

Results

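Progress of a cell from G1 into S phase is set by a small group of cyclins, kinases, inhibitors and pocket proteins, and 10 genes of this group were followed through the reprogramming of mouse spermatogonial stem cells (SSCs) towards germline-derived pluripotent stem cells (gPSCs). They were taken by name from a list: the D-type cyclins *Ccnd1*, *Ccnd2* and *Ccnd3*, the kinase *Cdk6*, the E-type cyclins *Ccne1* and *Ccne2*, the inhibitors *Cdkn1b* and *Cdkn2a*, and the pocket proteins *Rb1* and *Rbl1*. All 10 were found among the 24615 genes of the single-cell STRT-seq count table, and all 10 were also in both scTrio-seq2 tables. The genes that changed with the smallest adjusted p were *Ccnd2*, *Ccnd1* and *Ccne1*. Between SSC1-4 and RPG3, one of the 4 clusters with pluripotent features, *Ccnd2* fell 6.83-fold while *Ccnd1* rose 4.48-fold and *Ccne1* rose 10.2-fold.

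As background, D-type cyclins are induced by growth factor signals and bind CDK4 or CDK6, and these kinases phosphorylate the retinoblastoma protein RB1 and its relatives. RB1 and the related pocket protein p107, which *Rbl1* encodes, hold E2F transcription factors in check until they are phosphorylated, and E-type cyclins with CDK2 then complete the passage into S phase. p27, the product of *Cdkn1b*, inhibits cyclin-CDK2 complexes, and the *Cdkn2a* locus makes p16, which inhibits CDK4 and CDK6, and p19Arf, which acts through p53. Mouse embryonic stem cells are known for a short G1 phase. *Ccnd2* is known for its expression in cultured spermatogonial stem cells, where it lies downstream of the growth factor GDNF.

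The study asked how SSCs, which normally give rise only to sperm, turn into pluripotent cells in culture. The SSCs came from postnatal male pups of C57BL/6 mothers, which carried an *Oct4*-EGFP or EGFP transgene, and DBA/2 fathers, and were cultured with EGF, bFGF, GDNF and ESGRO on inactivated mouse embryonic fibroblasts. Single cells were picked by mouth pipette from SSC-like and pluripotent-like colonies between day 0 and day 27 without added chemicals, so the share of a class among the cells was set partly by the picking. The authors sorted these cells into 18 clusters: SSC1 to SSC4, RPG1 to RPG4 (the branch that gains pluripotency), and the failed branches named fibroblast, early-pluripotent, meiotic and neural. A gPSC line at passage 1 and passage 15 and the embryonic stem cell line F1 4-5 mESC (ESC), all from the same cross and grown in 2iL medium, each gave 1 library. In a second experiment, cells reprogrammed with 5 chemicals (5C: SGC707, vitamin C, EGCG, Daphnetin and TUDCA) or with the solvent DMSO were measured by scTrio-seq2.

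Unique molecular identifiers (UMIs, 1 per captured RNA molecule) of the cells of 1 class in 1 library were added up, and a sum was used if it held 5 cells or more. This gave 36 sums for SSC1-4, 7 for RPG1, 3 for RPG2, 8 for RPG3, 2 for RPG4, 5 for fibroblast, 3 for early-pluripotent, 6 for meiotic and 12 for neural cells. The 46 libraries of the time course held 4339 cells and 15975410 to 34609591 UMIs each, and the 3 line libraries 10833720 to 14807169 UMIs. The 8 samples of 5C held 724 cells and 5880774 to 10723044 UMIs each, and the 5 samples of DMSO 365 cells and 3888311 to 8059618. Levels are given as CPM, the UMIs of a gene scaled to a common total of the library after TMM scaling. Each molecule counts once whatever its length. CPM is not corrected for how well each transcript is captured, so it was used mainly to compare a gene between classes. The deposited metadata place the time-course libraries in batches B1 and B2, which the study describes as separate batches of reprogramming. RPG2 and early-pluripotent sums were all of batch B2, RPG4 and fibroblast sums all of B1, and SSC1-4 had 29 sums of B1 and 7 of B2. Nothing states that libraries within a batch came from separate cultures, so p-values measure the spread between libraries. The authors drew the clusters from these same transcriptomes, so a test between clusters describes how far apart they lie and is no independent test. The defining markers of SSCs and of pluripotency followed the names of SSC1-4 and RPG3. The summed level of 4 SSC markers was 1153 to 2453 CPM in SSC1-4 and 99.5 to 306 CPM in RPG3, and that of the 3 pluripotency markers was 3.78 to 97.6 CPM in SSC1-4 and 433 to 670 CPM in RPG3. RPG1 kept SSC markers at 1244 to 1599 CPM, with pluripotency markers at 36.1 to 186 CPM. RPG4 had SSC markers at 76.3 and 121 CPM and pluripotency markers at 197 and 316 CPM, below every RPG3 library. The 3 fibroblast markers were at 42.5 to 773 CPM in fibroblast cells and 0 to 20.0 CPM in SSC1-4. The other failed branches were less clear. The 2 markers of the early-pluripotent branch were at 16.6 to 20.0 CPM there, inside the SSC1-4 range of 0 to 29.7 CPM and below the 243 to 408 CPM of RPG3. RPG4 held these 2 markers at 6.12 and 7.12 CPM, also inside the SSC1-4 range. The 4 neural markers were at 0 to 115 CPM (median 13.2) in neural cells and 0 to 28.1 CPM (median 8.31) in SSC1-4, and the 2 meiotic markers at 13.2 to 95.5 CPM in meiotic cells and 2.39 to 83.0 CPM in SSC1-4.

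In the GRCm38 build (mm10) with the GENCODE vM21 annotation, *Ccnd1* lies on the minus strand at chr7:144929931-144939925, *Ccnd2* on the minus strand at chr6:127125162-127152193 and *Ccnd3* on the plus strand at chr17:47505051-47599691. *Ccne1* lies on the minus strand at chr7:38097984-38107534, *Ccne2* on the plus strand at chr4:11191351-11204779 and *Cdk6* on the plus strand at chr5:3341485-3531008. *Cdkn1b* lies on the plus strand at chr6:134920401-134925513 and *Cdkn2a* on the minus strand at chr4:89274471-89294653. *Rb1* lies on the minus strand at chr14:73183673-73325822 and *Rbl1* on the minus strand at chr2:157145893-157204534. The counts cover each whole gene, so the 2 transcripts of *Cdkn2a*, which start far apart, could not be told apart.

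Promoter sequences from RefSeq (GRCm38.p6) were found for 6 of the 10 genes: *Ccne1*, *Ccnd3*, *Cdk6*, *Cdkn1b*, *Cdkn2a* and *Rbl1*. The stretches upstream of *Ccne1*, *Rbl1* and the upstream start of *Cdkn2a* are shown, *Ccne1* because it rose most of the 10 genes in RPG3 and *Rbl1* and *Cdkn2a* because they alone of these promoters hold a match to the E2F letters searched. E2F factors are what the pocket proteins restrain. The letters searched on both strands were TTTCGCGC, TTTGGCGC, TTTCCCGC and TTTGCCGC, and 611 of 32851 RefSeq promoters (1.86%) hold at least 1 match in the 250 bases before the start. GC boxes, searched as GGGCGG on both strands, are in 32.7% of them. Each stretch is given 5′ to 3′ on the gene's own strand and ends where the annotated gene begins. Capitals mark GC boxes in *Ccne1* (chr7:38107535-38107740) and E2F letters in *Rbl1* (chr2:157204535-157204784) and *Cdkn2a* (chr4:89294654-89294869).
Ccne1: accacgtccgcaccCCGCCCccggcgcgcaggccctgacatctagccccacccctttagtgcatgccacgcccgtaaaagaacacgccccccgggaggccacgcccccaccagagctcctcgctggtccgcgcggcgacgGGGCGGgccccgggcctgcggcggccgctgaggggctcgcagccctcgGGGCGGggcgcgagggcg
Rbl1: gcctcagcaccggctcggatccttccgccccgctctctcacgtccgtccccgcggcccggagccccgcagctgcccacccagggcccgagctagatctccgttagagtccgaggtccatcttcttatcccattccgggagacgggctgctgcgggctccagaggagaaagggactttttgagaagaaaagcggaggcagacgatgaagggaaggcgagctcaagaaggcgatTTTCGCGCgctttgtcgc
Cdkn2a: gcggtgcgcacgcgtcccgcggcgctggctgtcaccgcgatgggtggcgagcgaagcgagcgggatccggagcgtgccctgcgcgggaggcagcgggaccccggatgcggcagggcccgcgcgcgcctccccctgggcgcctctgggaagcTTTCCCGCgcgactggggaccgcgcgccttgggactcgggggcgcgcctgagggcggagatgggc
The *Ccne1* stretch holds 3 GC boxes and none of the E2F letters searched. The match in *Rbl1* is TTTCGCGC, with its first base 18 bases before the end of the stretch, and that in *Cdkn2a* is TTTCCCGC, with its first base 65 bases before the end of the stretch. A match is a description of the letters and not a site of binding.

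**Figure D1:**
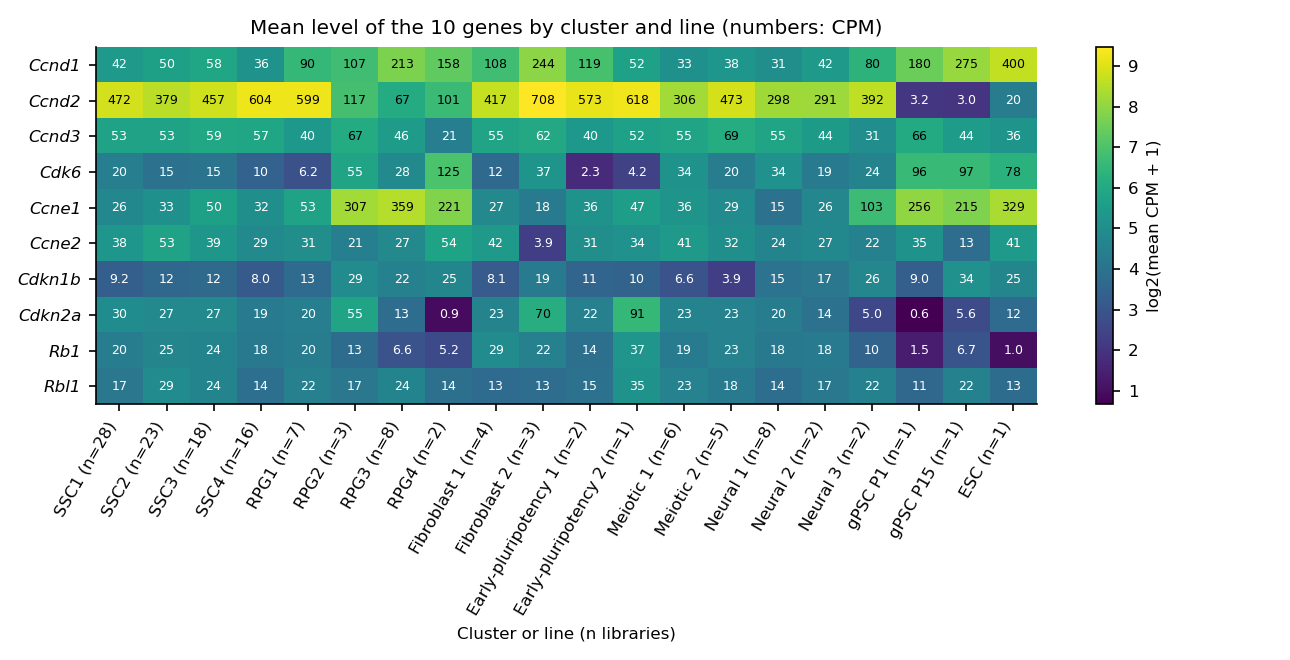
Mean level of each gene (rows) in each cluster and line (columns) as log2(mean CPM + 1), with the mean CPM printed in each cell and the number of libraries under each column. *Ccnd2* is below 120 CPM in RPG2 to RPG4 and at or below 20 CPM in the lines, whereas *Ccne1* is above 200 CPM in all of these and *Cdk6* is highest in RPG4, gPSC and ESC. Sums per cluster were scaled on their own, so a value can differ slightly from the same line or cluster in the text.

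*Ccnd2* encodes the D-type cyclin that gave the most UMIs of the 3 in SSCs. Its level in SSC1-4 was 443 ± 121 CPM (SD, n = 36 libraries), with a lowest value of 221, a median of 466 and a highest value of 708 CPM. RPG1 held 608 ± 42.3 CPM (n = 7), inside the SSC1-4 range, and the difference did not pass the test (log2 fold change 0.45 ± 0.18, SE, adjusted p = 0.128). The RPG2 libraries had 135, 187 and 26.2 CPM, and the RPG4 libraries 90.6 and 104 CPM. RPG3 ranged from 27.4 to 134 CPM with a median of 48.8. Every RPG2, RPG3 and RPG4 library therefore lay below every SSC1-4 and every RPG1 library. Against SSC1-4, *Ccnd2* fell by 1.93 ± 0.32 on the log2 scale in RPG2 (SE, adjusted p = 6.8e-07), by 2.77 ± 0.22 in RPG3 (adjusted p = 4.52e-20) and by 2.18 ± 0.40 in RPG4 (adjusted p = 9.36e-06). RPG3 also lay 3.22 ± 0.25 below RPG1 (adjusted p = 1.16e-19).

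The remaining *Ccnd2* of RPG3 was uneven between libraries, and SSC markers moved with it. The RPG3 cells of day 12 replicate 2, day 20 replicate 8 and day 23 replicate 2 held 134, 92.9 and 117 CPM of *Ccnd2*, with summed SSC markers at 257, 291 and 306 CPM. The other 5 libraries held 27.4 to 54.4 CPM of *Ccnd2*, with summed SSC markers at 99.5 to 173 CPM. The part of these markers in the *Ccnd2* level was not tested. In cells thinned to 50000 UMIs, a *Ccnd2* UMI was found in 80.7% of 254 RPG3 cells, in 100% of 312 RPG1 cells and in 8.70% of 46 gPSC cells at passage 1. *Nanog*, a pluripotency gene, gave a UMI in 2.90 to 6.47% of cells of the 4 SSC clusters at the same depth. That share belongs to another gene and gives no floor for *Ccnd2*.

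*Ccnd1*, the D-type cyclin that answers most directly to mitogen signals, went the other way. SSC1-4 libraries held 47.0 ± 22.3 CPM (SD, n = 36), from 7.32 through a median of 43.2 to 119 CPM. RPG3 libraries held 211 ± 63.0 CPM (n = 8), from 125 through 202 to 318 CPM, and none overlapped SSC1-4. RPG4 libraries had 136 and 168 CPM, also above all SSC1-4 libraries, whereas the RPG2 values of 65.4, 103 and 148 CPM and the RPG1 range of 41.5 to 184 CPM overlapped them. The rise was 2.16 ± 0.22 on the log2 scale in RPG3 (SE, adjusted p = 5.61e-15), 1.70 ± 0.38 in RPG4 (adjusted p = 0.000287) and 1.18 ± 0.34 in RPG2 (adjusted p = 0.00348). In RPG2 the call was lost without day 14 replicate 6, the highest of its 3 libraries (log2 fold change 0.84, adjusted p = 0.127). *Ccnd1* was the single gene of the 10 that passed the edgeR test in RPG1, with a log2 fold change of 0.95 ± 0.24 (adjusted p = 0.00855), but this rested on the library of day 18 replicate 5 at 184 CPM. Without it the value was 0.68 (adjusted p = 0.132), and when the 2 libraries that held both classes were fitted with library as a blocking factor it was 0.80 (adjusted p = 0.590). RPG3 libraries of batch B2 had higher *Ccnd1* (246 to 318 CPM, n = 3) than those of B1 (125 to 214 CPM, n = 5), and both lay above all SSC1-4 libraries.

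*Ccnd3*, the D-type cyclin often tied to differentiated and blood cells, moved little. SSC1-4 held 56.9 ± 13.8 CPM (SD, n = 36) and RPG3 45 ± 9.96 CPM (n = 8), with a log2 difference of -0.32 ± 0.16 (SE, adjusted p = 0.0836). Among the classes compared with SSC1-4 it passed the test only in RPG4, where both libraries had low values (21 and 19.3 CPM; log2 fold change -1.49 ± 0.35, adjusted p = 0.000509).

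**Figure D2:**
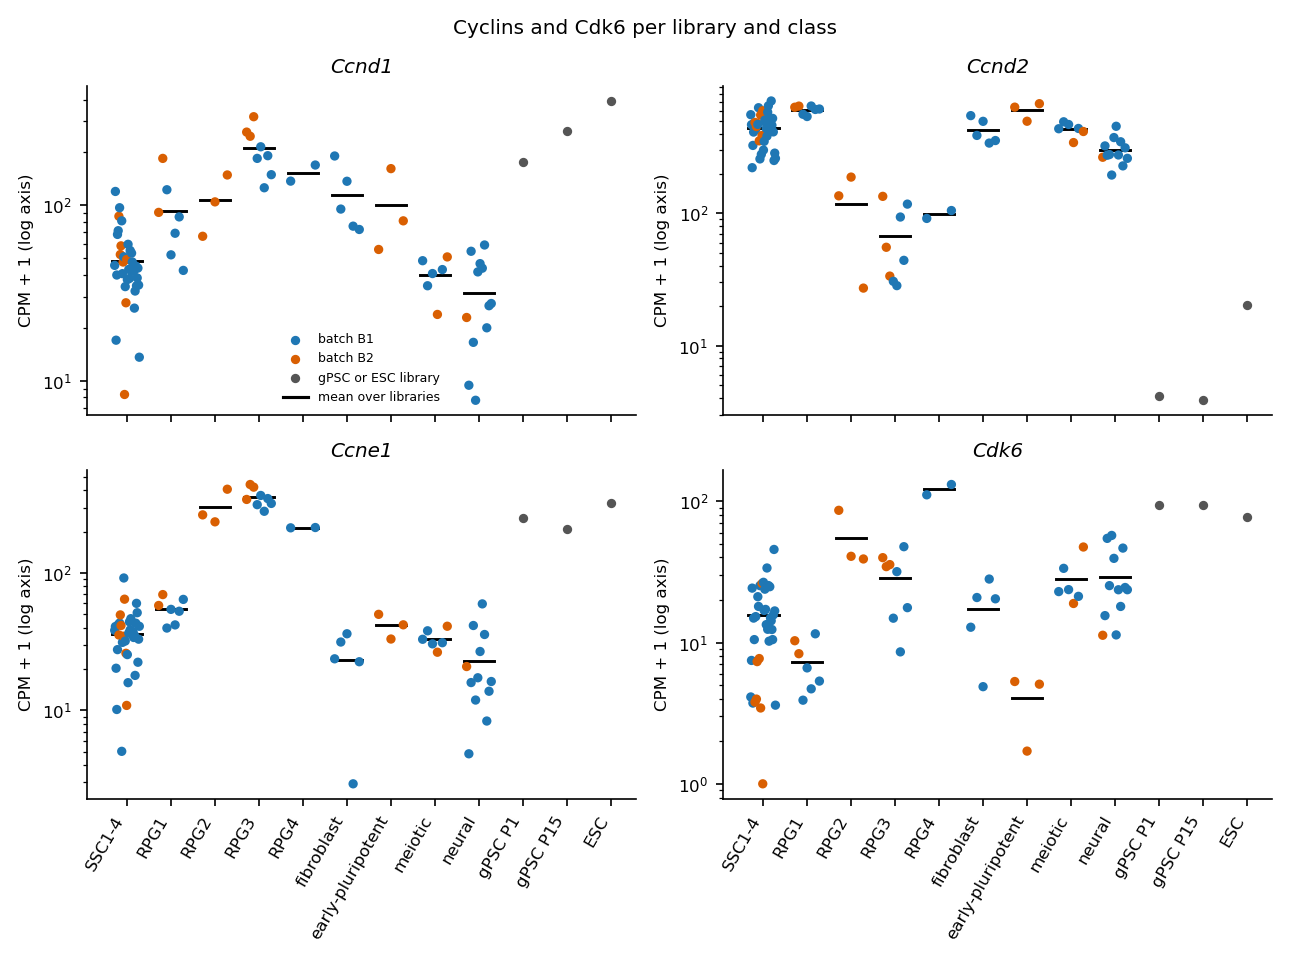
*Ccnd1*, *Ccnd2*, *Ccne1* and *Cdk6* in every library, with CPM + 1 on a log axis, 1 point per library, batch by colour and a line at the mean where a class has more than 1 library. The RPG3 points of *Ccnd1* (125 to 318 CPM) and *Ccne1* (281 to 441 CPM) lie above all SSC1-4 points and those of *Ccnd2* (27.4 to 134 CPM) below them.

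These opposite changes altered which D-type cyclin was most frequent among the UMIs of the 3 genes. The share of *Ccnd2* was 80.2 ± 5.37% in SSC1-4 (SD, n = 36) and 82.5 ± 4.55% in RPG1 (n = 7), and 20.6 ± 12.4% in RPG3 (n = 8). The share of *Ccnd1* was 8.71 ± 3.69% in SSC1-4, 12.1 ± 5.36% in RPG1 and 64.8 ± 11.6% in RPG3. RPG2 lay between these, with *Ccnd1* at 24.4, 30.03 and 59.2% in its 3 libraries, and RPG4 had 55.0 and 57.7%. In the lines, *Ccnd1* made up 72.3% at gPSC passage 1 (95% exact binomial interval 70.6 to 73.9%), 85.5% at passage 15 (84.2 to 86.6%) and 87.8% in ESC (87.0 to 88.6%), counting error only. *Ccnd2* made up 1.29%, 0.921% and 4.29% there. The 3 genes together gave 547 ± 124 CPM in SSC1-4, 740 ± 72.9 CPM in RPG1 and 322 ± 62.4 CPM in RPG3. Shares are of UMIs within a library and are not corrected for how well each transcript is captured. In every failed branch *Ccnd2* remained the most frequent, with mean shares from 71.9% in fibroblast to 80.5% in early-pluripotent cells.

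**Figure D3:**
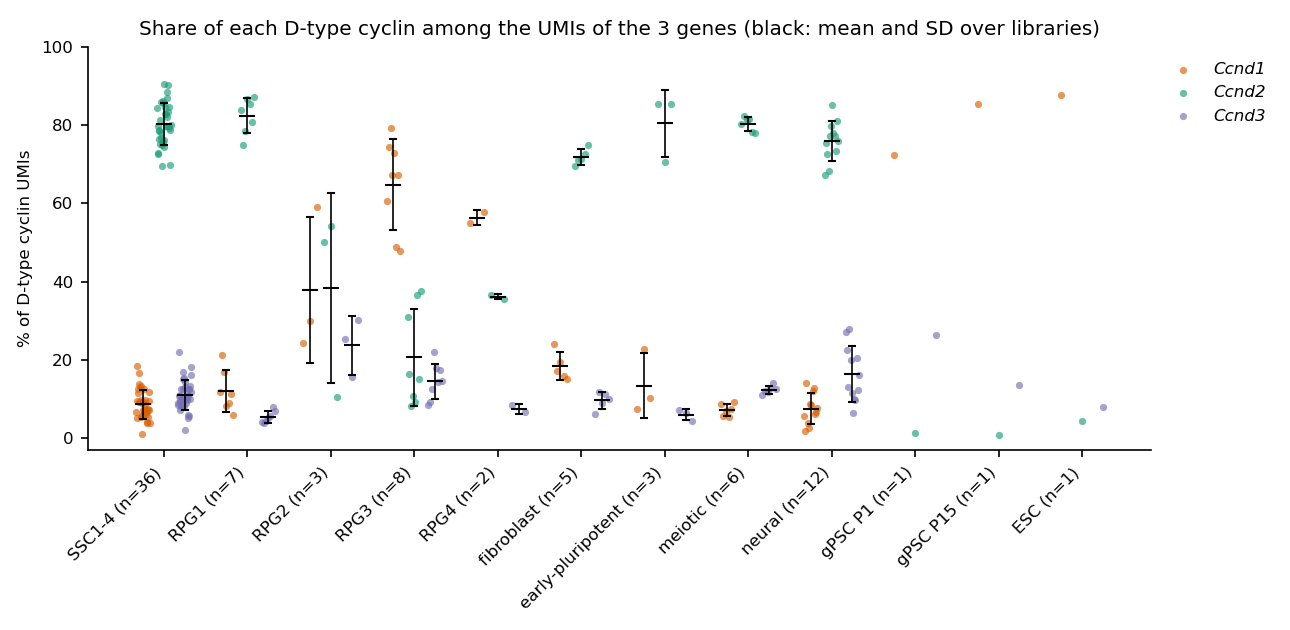
Share of D-type cyclin UMIs (percent) that came from *Ccnd1*, *Ccnd2* and *Ccnd3* in each class and line, with 1 coloured point per library, the mean and SD in black and the number of libraries under each class. *Ccnd2* holds 80.2% in SSC1-4 and 20.6% in RPG3, and *Ccnd1* holds 64.8% in RPG3 and 87.8% in ESC.

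*Cdk6*, a kinase partner of the D-type cyclins, was low in SSC1-4 at 14.6 ± 9.82 CPM (SD, n = 36; 0 to 44.6 CPM). The RPG1 libraries had 2.91 to 10.5 CPM, a log2 difference of -1.25 ± 0.41 from SSC1-4 that was not called in edgeR (adjusted p = 0.0608). It was called with the DESeq2 Wald test (-1.24, adjusted p = 0.0202), with at least 10 cells per sum (-1.27, adjusted p = 0.0312) and within batch B1 (-1.60, adjusted p = 0.0320), where *Ccnd1* lost its RPG1 call (0.65, adjusted p = 0.237). The RPG2 libraries had 85.2, 39.8 and 38.0 CPM. RPG3 libraries had 7.59 to 46.7 CPM with a median of 32.1, and RPG4 libraries 110 and 130 CPM. Of the RPG clusters, RPG4 alone stood clear of all SSC1-4 libraries. *Cdk6* rose by 1.89 ± 0.45 on the log2 scale in RPG2 (SE, adjusted p = 0.000398) and by 3.04 ± 0.47 in RPG4 (adjusted p = 1.9e-07). In RPG3 the rise was 0.92 ± 0.33 (adjusted p = 0.014), but it became -0.28 (adjusted p = 0.803) when the 2 libraries that held both RPG3 and SSC1-4 sums, day 20 replicate 8 and day 23 replicate 1, were fitted with library as a blocking factor (0.18 without it, adjusted p = 0.884), and without day 23 replicate 1 it was 0.77 (adjusted p = 0.0566). SSC1-4 libraries of batch B1 had 2.60 to 44.6 CPM and those of B2 0 to 25.1 CPM, and within batch B1 the RPG3 difference was 0.54 (adjusted p = 0.217). Against RPG1 the rise in RPG3 was 2.17 ± 0.49 (adjusted p = 0.000198), and RPG4 lay 2.12 ± 0.62 above RPG3 (adjusted p = 0.0187). With only 2 RPG4 libraries, the RPG4 against RPG3 difference lost its call when either was left out (adjusted p = 0.0999 and 0.189).

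*Ccne1*, which with CDK2 drives entry into S phase, showed the largest rise of the 10 genes in RPG3. SSC1-4 libraries held 35.1 ± 16.1 CPM (SD, n = 36), from 4.02 through a median of 35.2 to 91.0 CPM. RPG1 libraries held 53.4 ± 10.9 CPM (n = 7), from 38.7 to 68.6 CPM, within the SSC1-4 range (log2 difference 0.61 ± 0.25, SE, adjusted p = 0.143). The RPG2 libraries had 264, 235 and 407 CPM, the RPG4 libraries 212 and 214 CPM, and RPG3 ranged from 281 through 345 to 441 CPM. There was thus no overlap between these 3 clusters and SSC1-4 or RPG1. The log2 fold change over SSC1-4 was 3.13 ± 0.28 in RPG2 (adjusted p = 2.48e-16), 3.35 ± 0.21 in RPG3 (adjusted p = 5.47e-26) and 2.62 ± 0.35 in RPG4 (adjusted p = 1.96e-09), and RPG3 lay 2.74 ± 0.35 above RPG1 (adjusted p = 3.01e-10).

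*Ccne2*, the other E-type cyclin, did not share this rise. SSC1-4 held 42.9 ± 17.4 CPM (SD, n = 36), RPG3 26.8 ± 10.1 CPM (n = 8) and RPG4 39.2 and 64.3 CPM. In RPG3 the log2 difference of -0.66 ± 0.25 (SE, adjusted p = 0.0213) was under the limit set on the fold change. It passed the test in RPG2 (-1.02 ± 0.41, adjusted p = 0.0413), but not once any of the 3 RPG2 libraries was left out. Batch moved with this call: it was lost with batch as a covariate (-0.89, adjusted p = 0.0991) and within batch B2 (-0.95, adjusted p = 0.188), and the 2 libraries that held both classes gave -0.27 (adjusted p = 0.755) with library as a blocking factor.

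The inhibitor *Cdkn1b* was sparse, at 9.77 ± 6.02 CPM in SSC1-4 (SD, n = 36; 0 to 25.7 CPM). RPG3 libraries held 21.7 ± 6.20 CPM (n = 8; 11.1 to 29.99 CPM), overlapping SSC1-4, and the rise of 1.12 ± 0.31 on the log2 scale passed the test (SE, adjusted p = 0.0018). The RPG2 libraries had 56.3, 22 and 7.75 CPM, and the call there (1.51 ± 0.45, adjusted p = 0.00546) rested on day 12 replicate 2, a sum of 8 cells, without which the value was 0.58 (adjusted p = 0.459). RPG4 had 19.4 and 29.5 CPM (1.29 ± 0.55, adjusted p = 0.0735).

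*Cdkn2a* transcripts fell towards RPG4. SSC1-4 held 27.1 ± 17.2 CPM (SD, n = 36; 3.64 to 112 CPM) and RPG3 12.8 ± 9.37 CPM (n = 8; 1.45 to 29 CPM), with wide overlap and a log2 fold change of -1.07 ± 0.37 (SE, adjusted p = 0.0104). The 2 RPG4 libraries had 0.791 and 0.957 CPM, 7 UMIs in all, below every SSC1-4 and RPG3 library, and the log2 fold change was -4.87 ± 1.02 (adjusted p = 9.19e-05). RPG2 did not follow this course, with 110, 24.4 and 29.9 CPM (1.06 ± 0.46, adjusted p = 0.0649). Within batch B2 the RPG3 difference was -0.82 (adjusted p = 0.380).

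*Rb1*, the pocket protein on which CDK4 and CDK6 act, was lower in the later clusters. SSC1-4 held 23.3 ± 9.09 CPM (SD, n = 36; 7.32 to 49.2 CPM), RPG1 20.0 ± 10.5 CPM (n = 7) and RPG3 6.54 ± 4.86 CPM (n = 8; 1.10 to 16.6 CPM), so that RPG3 overlapped the lowest SSC1-4 libraries. The fall was 1.83 ± 0.35 on the log2 scale in RPG3 (SE, adjusted p = 4.72e-06). In RPG4, with 1.98 and 8.04 CPM, *Rb1* fell by 2.16 ± 0.69 (adjusted p = 0.0126), but without day 20 replicate 1 the value was -1.54 (adjusted p = 0.286). The RPG2 libraries had 26.7, 6.18 and 4.61 CPM (-0.91 ± 0.51, adjusted p = 0.149), and the call there turned on day 12 replicate 2: without it the value was -2.10 (adjusted p = 0.0111).

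*Rbl1*, the pocket protein whose promoter holds the E2F letters shown above, did not pass the test in any RPG cluster. It was 24 ± 21 CPM in SSC1-4 (SD, n = 36) and 23.7 ± 19.8 CPM in RPG3 (n = 8), with a log2 difference of 0.01 ± 0.32 (SE, adjusted p = 0.98). One RPG3 library, day 12 replicate 2 with 7 cells, had 72.1 CPM while the other 7 had 11.1 to 20.2 CPM.

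**Figure D4:**
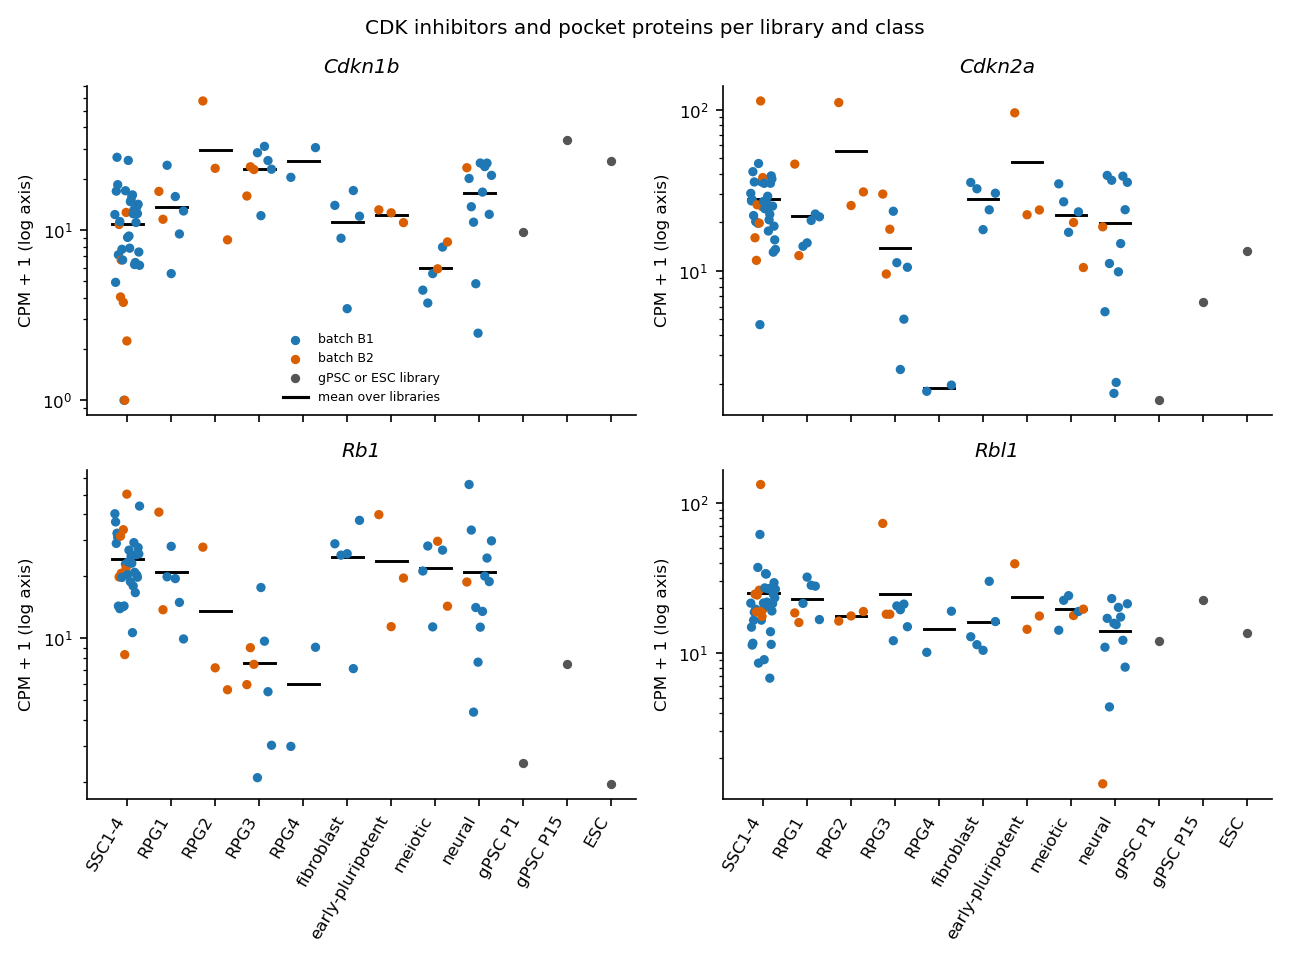
*Cdkn1b*, *Cdkn2a*, *Rb1* and *Rbl1* in every library, with CPM + 1 on a log axis, 1 point per library, batch by colour and a line at the mean where a class has more than 1 library. The 2 RPG4 points of *Cdkn2a* (0.791 and 0.957 CPM) lie below all SSC1-4 points, and the RPG3 points of *Rb1* (1.10 to 16.6 CPM) reach into the lower end of SSC1-4.

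Counted together, a gene was called when its adjusted p was below 0.05 and its change at least 0.5 on the natural-log scale. In RPG3 against SSC1-4, 4 of the 10 genes were called higher (*Ccnd1*, *Ccne1*, *Cdk6*, *Cdkn1b*) and 3 lower (*Ccnd2*, *Cdkn2a*, *Rb1*), beside 19.4% and 27.5% of the 20030 genes tested. In RPG2, 4 were higher and 2 lower, beside 14.8% and 17.2% of all genes, and in RPG4, 3 were higher and 4 lower, beside 11.7% and 14% of all genes. In RPG1, 1 was higher and 0 lower, beside 2.23% and 1.55%. Against RPG1, RPG2 had 4 higher (*Ccnd3*, *Ccne1*, *Cdk6*, *Cdkn2a*) and 1 lower (*Ccnd2*), beside 11.2% and 13.9% of all genes, and RPG3 had 3 higher (*Ccnd1*, *Ccne1*, *Cdk6*) and 2 lower (*Ccnd2*, *Rb1*), beside 15.4% and 20.3%. RPG2 sums were all of batch B2 and RPG1 sums 5 of B1 and 2 of B2. Within B2 fewer of the 10 genes were called in RPG2 against RPG1. RPG4 against RPG3 had 1 higher (*Cdk6*) and 2 lower (*Ccnd3*, *Cdkn2a*), beside 3.88% and 4.57%. Both RPG4 libraries, day 20 replicates 1 and 2, also held RPG3 cells. With library as a blocking factor over these, *Ccnd2* was called higher in RPG4 (log2 fold change 1.85, adjusted p = 0.000179; 90.6 and 104 CPM against 29.6 and 27.4 CPM), and *Ccnd3* (adjusted p = 0.0518) and *Cdkn2a* (adjusted p = 0.0558) lost their calls. On the same libraries without the block *Ccnd2* was also called (adjusted p = 0.00495), *Ccnd3* was likewise not called (adjusted p = 0.0718), and *Cdkn2a* was. All 3 RPG4 against RPG3 calls were lost without either RPG4 library, and in RPG2 against RPG1 the *Ccnd3* and *Cdkn2a* calls were both lost without RPG1 of day 18 replicate 5, day 20 replicate 1 or day 20 replicate 2 and without RPG2 of day 12 replicate 2. When library was a blocking factor over the 2 libraries with both classes, 4 of the 10 genes were called in RPG3 against SSC1-4 in place of 7: *Cdk6*, *Cdkn1b* (log2 fold change 1.002, adjusted p = 0.307) and *Rb1* (-1.43, adjusted p = 0.294) were lost, and without the block the same libraries also gave 4. The median log2 fold change of the 10 genes in RPG3 was -0.16, beside -0.25 for all genes tested. In RPG2 and RPG4 the median of all genes was -0.52 and -0.54. With DESeq2 size factors in place of TMM, the median of all genes moved from -0.54 to -0.39 in RPG4 against SSC1-4 and from -0.27 to -0.15 in RPG4 against RPG3, and higher genes made up 56.2% in place of 46.0% of the RPG4 against RPG3 calls, while no call of the 10 genes changed direction. Under that scaling *Ccnd3* lost its call in RPG4 against RPG3 (adjusted p = 0.0541), *Cdkn1b* gained one in RPG4 against SSC1-4 (log2 fold change 1.44, adjusted p = 0.0379), and higher genes made up 53.1% in place of 45.5% of the RPG4 against SSC1-4 calls. All these comparisons share the SSC1-4 libraries, or RPG1 or RPG3 libraries, with others.

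RPG1 and RPG3 cells were found side by side in 7 libraries, which allowed a comparison within the same library. *Ccnd1*, *Ccne1*, *Cdk6* and *Cdkn1b* were higher in RPG3 in 7 of 7 libraries, and *Ccnd2* and *Rb1* were lower in 7 of 7. The same count was not made over all genes, so how unusual this is cannot be said. The mean log2 ratio of (CPM + 1) was 2.72 ± 0.22 for *Ccne1* (SD, n = 7), -3.60 ± 0.75 for *Ccnd2* and 1.24 ± 0.55 for *Ccnd1*. With the library as a block, *Cdkn1b* (log2 fold change 0.89, adjusted p = 0.00544) and *Cdkn2a* (-1.19, adjusted p = 0.0409) were called in addition to *Ccnd1*, *Ccne1*, *Cdk6*, *Ccnd2* and *Rb1*. *Cdkn2a* was lower in RPG3 in 5 of 7 libraries, and *Cdkn1b* was also called on the same libraries without the block (0.80, adjusted p = 0.0373).

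Of 25 further genes of G1 control, 9 were called higher and 4 lower in RPG3 against SSC1-4, beside 19.4% and 27.5% of all genes, and their median log2 fold change was 0.37, beside -0.25 for all genes. *Myc* and *Mycn*, transcription factors that drive growth and the cell cycle, rose by 4.46 ± 0.46 (SE, adjusted p = 2.3e-14) and 1.88 ± 0.14 (adjusted p = 7e-21). *Myc* already passed the test in RPG1 (2.56 ± 0.49, adjusted p = 0.00022), where *Mycn* was lower (-0.78 ± 0.18, adjusted p = 0.0029). *Cdk4*, the other kinase partner of D-type cyclins, rose by 0.86 ± 0.09 (adjusted p = 1.7e-14), from 337 ± 53.3 CPM in SSC1-4 to 611 ± 63.0 CPM in RPG3 (SD). *Cdc25a*, a phosphatase that activates CDK2, rose by 1.26 ± 0.25, and *Cks1b*, a small CDK-binding protein that helps to degrade p27, by 0.86 ± 0.08. *E2f4* and *E2f8*, both counted among the repressive E2F factors, rose by 2.48 ± 0.20 and 2.39 ± 0.37.

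The CDK inhibitors of the list did not move one way. *Cdkn1a* (p21) rose by 1.005 ± 0.27 on the log2 scale (SE, adjusted p = 0.0011) and *Cdkn2d* (p19Ink4d) by 0.96 ± 0.22 (adjusted p = 0.00013) in RPG3. *Cdkn1c* (p57), an imprinted gene, fell by 3.27 ± 0.46 (adjusted p = 2.3e-09), and *Cdkn2b* (p15), the neighbour of *Cdkn2a*, by 0.85 ± 0.31 (adjusted p = 0.015). *E2f5* and *E2f6* fell by 1.07 ± 0.25 and 2.26 ± 0.30. *Cdk2* (0.37 ± 0.14, adjusted p = 0.02) was under the fold limit, and *Rbl2*, the other pocket protein gene (0.46 ± 0.73, adjusted p = 0.6), did not pass the test. Genes of S and G2/M phase gave the background of cycling cells: 2 of 10 were called higher in RPG3, beside 19.4% of all genes, with a median log2 fold change of 0.52 and a summed level of 3029 to 4253 CPM against 1616 to 3058 CPM in SSC1-4. Their part in the levels of the cyclins was not tested.

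Between the SSC clusters few of the 10 genes were called, as were few of all genes. Against SSC1, *Rbl1* was called in SSC2 (log2 fold change 0.94 ± 0.23, SE, adjusted p = 0.00201), with 29.4 ± 12.4 CPM (SD, n = 23) against 16.9 ± 14.1 CPM (n = 28), beside 3.74% of all genes called in either direction. *Ccne1* was called in SSC3 (0.93 ± 0.19, adjusted p = 6.22e-05), with 49.7 ± 18.1 CPM (n = 18) against 26.1 ± 13.7 CPM, beside 10.8% of all genes. With library as a blocking factor (11 shared libraries), *Ccnd1* was called there too (0.89, adjusted p = 0.0158). None of the 10 was called in SSC4 by edgeR or DESeq2, beside 7.47% of all genes in edgeR, and 3 of the 10 had an unadjusted p under 0.05 there in edgeR. S and G2/M genes moved in the same comparisons, with 5 of 10 called higher in SSC2, 3 of 10 higher in SSC3 and 2 of 10 lower in SSC4, and their part was not tested. The SSC1 cells were also shallower, with a median of 149268 UMIs per cell against 281650 to 378771 in SSC2 to SSC4. Over the days of culture *Ccnd2* in SSC1-4 kept no single direction: it was 557 CPM in the library of day 0, 221 and 326 CPM at day 12, 384 to 650 CPM at day 20 and 250 to 285 CPM at day 27.

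In the failed branches, with the clusters of each branch merged, few of the 10 genes differed from SSC1-4. *Ccnd1* was higher in fibroblast cells (190, 94.0, 136, 74.9 and 71.7 CPM in 5 libraries; log2 fold change 1.27 ± 0.27, SE, adjusted p = 0.000317), the single call there, beside 5.33% of all genes. With library as a blocking factor (4 shared libraries) it was 0.94 (adjusted p = 0.462). Markers of the embryonic fibroblast feeder moved with this class: 9 of 9 were called higher, and their summed level was 332 to 2271 CPM against 13.5 to 161 CPM in SSC1-4. Their part in the *Ccnd1* value was not tested. None of the 10 genes was called in early-pluripotent cells, where *Ccnd1* had 54.9, 161 and 80.4 CPM and *Cdk6* 4.30, 0.704 and 4.07 CPM, beside 1.24% of all genes. None was called in meiotic cells, beside 1.38%. In edgeR, an unadjusted p under 0.05 was reached by 2 of the 10 in each of these branches, and DESeq2 called 1 in early-pluripotent cells (*Cdk6*, log2 fold change -2.27, adjusted p = 0.00355) and 0 in meiotic cells. In neural cells *Cdk6* was called higher (28.2 ± 16.2 against 14.6 ± 9.82 CPM; 0.94 ± 0.29, adjusted p = 0.0227) and *Rbl1* lower (-0.82 ± 0.29, adjusted p = 0.0485), beside 7.36% of all genes. Each of these calls was lost when certain single libraries were left out, *Cdk6* without day 20 replicate 3 or 6 or day 27 replicate 3 and *Rbl1* without any of 8 libraries. Both were also lost with at least 10 cells per sum (adjusted p = 0.0829 and 0.260), with sums per batch and day (0.216 and 0.670) and with library as a blocking factor over 10 shared libraries (0.254 and 0.135). Summed S and G2/M genes were 1051 to 2425 CPM in neural cells against 1616 to 3058 CPM in SSC1-4, with 2 of 10 called lower, and feeder markers 13.4 to 478 CPM against 13.5 to 161 CPM, with 2 of 9 called higher. Their part in the neural values, Neural 3 included, was not tested. Among the neural clusters, Neural 3 (2 libraries) had the highest *Ccne1*, 103 ± 19.7 CPM, against 14.5 ± 5.58 CPM in Neural 1 (n = 8), given as values without a test.

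In the lines *Ccnd2* was lower and *Cdk6* higher than in any RPG3 library, whereas *Ccne1* in both gPSC libraries lay below the lowest RPG3 library. With 1 library each there was no test, and the intervals are exact 95% Poisson intervals that cover counting error only. *Ccnd1* was 176 CPM at gPSC passage 1 (168 to 183), 265 CPM at passage 15 (255 to 275) and 392 CPM in ESC (381 to 402). *Ccnd2* was 3.12 CPM (2.21 to 4.29), 2.85 CPM (1.93 to 4.07) and 19.2 CPM (16.9 to 21.6), below the lowest RPG3 library at 27.4 CPM. *Ccne1* was 249, 207 and 322 CPM, beside 281 to 441 CPM in RPG3, and *Cdk6* was 93.1, 93.4 and 76.5 CPM, above all RPG3 libraries and below both RPG4 libraries. *Rb1* was 1.48, 6.47 and 0.958 CPM, within or just under the RPG3 range. *Cdkn2a* differed between the lines, at 0.575 CPM from 7 UMIs at passage 1 (0.231 to 1.19), 5.42 CPM at passage 15 (4.11 to 7.03) and 12.2 CPM in ESC (10.4 to 14.2). *Cdkn1b* likewise was 8.79 CPM at passage 1 (7.21 to 10.6) and 32.7 CPM at passage 15 (29.4 to 36.4). The lines were grown in 2iL without the SSC medium, so line and medium cannot be told apart.

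The scTrio-seq2 samples gave the same genes under chemical induction. Classes were those the authors had assigned by prediction from the first experiment, and levels from this assay are not set against STRT-seq levels because the tables were normalised separately. The 5C samples were of days 12 to 16 and the DMSO samples of days 0, 20 and 24, so treatment and day cannot be told apart. SSC1-4 sums came from 8 samples of 5C and from samples 3, 4 and 5 of DMSO, whereas RPG1 and RPG3 of DMSO came only from samples 1 and 2. DMSO sample 5 held 8 cells of day 0 together with 45 cells of day 24.

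In SSC1-4 cells *Ccnd1*, *Ccnd2* and *Ccne1* were higher with 5C. *Ccnd2* was 476 to 944 CPM (median 753) in the 8 samples of 5C and 197, 58.3 and 98.2 CPM in the 3 of DMSO, without overlap. The log2 difference was 2.65 ± 0.35 (SE, adjusted p = 3.04e-07). *Ccnd1* was 44.1 to 146 CPM against 27.6, 1.59 and 2.19 CPM, again without overlap (2.78 ± 0.53, adjusted p = 0.000276). *Ccne1* was 13.8 to 62.1 CPM against 18.5, 13.3 and 4.38 CPM (1.39 ± 0.36, adjusted p = 0.00744), a call that was lost without DMSO sample 5, the one that mixed days (1.02, adjusted p = 0.140). *Ccnd3* had lower values with 5C, 13.6 to 29.9 CPM against 48.1, 29.2 and 36 CPM (-0.94 ± 0.40, adjusted p = 0.136). These 3 calls of 10 stand beside 7.86% of all genes called in either direction. S and G2/M genes moved with them: 7 of 10 were called higher, and their summed level was 1949 to 3051 CPM against 1289 to 1974 CPM. Pluripotency markers had summed levels of 62.5 to 193 CPM with 5C against 9.53, 36.1 and 44.4 CPM with DMSO, without overlap. Feeder markers had summed levels of 4.8 to 32.5 CPM against 36.3 to 58.2 CPM. The part of these markers in the cyclin levels was not tested.

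In RPG3 cells *Ccnd2* was 49.5 to 120 CPM in 6 samples of 5C and 16.6 and 1.66 CPM in 2 of DMSO (log2 difference 2.98 ± 0.48, adjusted p = 1.3e-05), the single call among the 10, beside 8.82% of all genes. Higher genes made up 46.1% of these calls over all genes, and 57.3% with DESeq2 size factors. Summed SSC markers were also higher there, at 157 to 470 CPM against 82.4 to 108 CPM, and their part was not tested. *Ccnd1* was 44.1 to 209 CPM with 5C against 224 and 205 CPM (-0.98 ± 0.51, adjusted p = 0.241), and *Ccne1* 184 to 279 CPM against 250 and 254 CPM (-0.10 ± 0.37, adjusted p = 0.917). The share of *Ccnd1* among D-type cyclin UMIs was 46.3 ± 11% with 5C (SD, n = 6) and 70.3 and 71.4% with DMSO. The 5C difference in *Ccnd1* was itself lower in RPG3 than in SSC1-4, with an interaction of -3.75 ± 0.71 on the log2 scale (SE, adjusted p = 0.000352), beside 4.68% of all genes with such a call. In RPG1 cells *Ccnd2* was 634 to 949 CPM in 4 samples against 301 and 172 CPM (1.78 ± 0.44, adjusted p = 0.0116), the single call, beside 3.33% of all genes. It was lost without DMSO sample 2 (1.41, adjusted p = 0.229). Summed S and G2/M genes were 2414 to 3129 CPM with 5C against 2349 and 1743 CPM with DMSO, without overlap, and their part was not tested. RPG2 and RPG4 were not tested between treatments. The 1 RPG4 sum of 5C held 5 cells, with summed SSC markers at 683 CPM. Its *Ccnd2* was 360 CPM (78.4% of D-type cyclin UMIs) and its *Ccne1* 37.6 CPM. The 2 RPG4 sums of DMSO had *Ccnd2* at 0 and 11.3 CPM, *Ccne1* at 222 CPM each and *Cdk6* at 0 and 74.8 CPM. In RPG2, *Ccnd2* was 27.9 to 59.3 CPM in 3 samples of 5C and 4.59 CPM in 1 of DMSO.

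**Figure D5:**
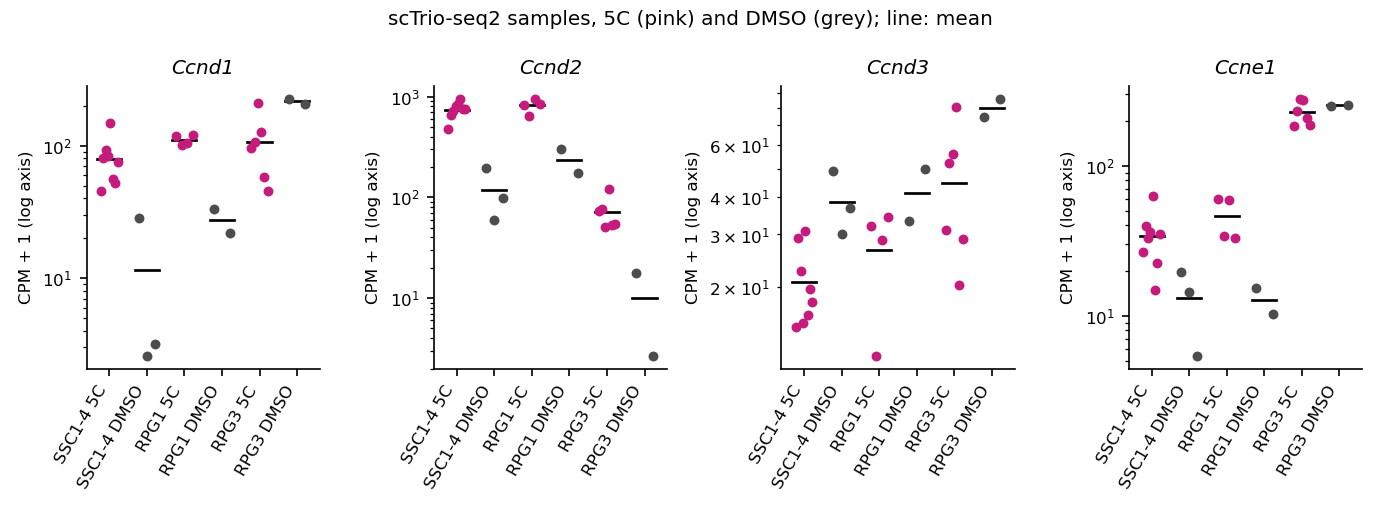
The 3 D-type cyclins and *Ccne1* in each scTrio-seq2 sample of SSC1-4, RPG1 and RPG3, with CPM + 1 on a log axis, 5C in pink, DMSO in grey and a line at the mean. *Ccnd2* is 476 to 944 CPM with 5C and 58.3 to 197 CPM with DMSO in SSC1-4, while *Ccne1* in RPG3 is 184 to 279 CPM with 5C and 250 and 254 CPM with DMSO.

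Over the 9 classes of the time course, the genes whose log2(CPM + 1) class means followed *Ccnd2*, *Ccne1* and *Ccnd1* most closely, the 3 members with the widest range of class means in CPM, were found by Pearson's r, as a description over 9 means that share libraries. On the log2 scale itself *Cdk6* and *Cdkn2a* ranged more widely than these 3. For *Ccnd2* these were *Asphd2* (r = 0.991), *Sec23ip* (0.986) and *Clcf1* (0.984). For *Ccne1* they were *Fzd5* (0.990), *Gart* (0.989) and *Sigirr* (0.989), and for *Ccnd1* *Hist1h4i* (0.980), *Ola1* (0.968) and *Adi1* (0.957).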

How the data were processed

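Deposited UMI counts per gene and cell were used, which the authors made with UMI-tools, STAR 2.7.2b and featureCounts 2.0.0 on mm10; the deposited clean tables hold the cells left after the authors' filters (at least 2000 genes and at most 5% mitochondrial reads per cell, genes in at least 3 cells). Clusters of the STRT-seq cells came from the deposited metadata, and classes of the scTrio-seq2 cells from the study's sample list. The scTrio-seq2 tables were filtered separately, and the 15426 genes in both were used (2242 genes were in 1 table only). 39 cells of 5C and 9 of DMSO had no class and were left out. No cell name was repeated, no cells had identical counts, and the 96 barcode numbers recur in every library by design. No doublet caller was run, since cells were picked singly.

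Counts of cells of 1 class in 1 library were added up where at least 5 cells were present, and these sums were tested in R 4.3.3 with edgeR 4.0.16 (TMM scaling, filterByExpr, quasi-likelihood test, Benjamini-Hochberg adjustment over all genes tested, all classes of a table in 1 fit). A call needed an adjusted p below 0.05 and a change of at least 0.5 on the natural-log scale. The SE of a log2 fold change was its size divided by the square root of F. Replicate libraries were averaged as mean ± SD, and 95% intervals of single libraries are exact and cover counting error only. The script was tested on simulated data with known fold changes. Other tools were Python 3.11, numpy 2.4.6, pandas 2.3.3, scipy 1.17.1, matplotlib 3.10.9 and, for alternatives, DESeq2 1.42.0.

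The 10 genes and all gene lists were chosen with earlier results of these data known. Named were the 10 genes, the genes of the G1 list called in RPG3 against SSC1-4 together with *Cdk4*, *Cdk2*, *Cdkn1a* and *Rbl2*, and the 3 genes most like each of the 3 with the widest range of class means in CPM. Neural 3 and the cells of single libraries were singled out after their values were seen. Several classes came from 1 library, so the library served as a block in an alternative over the libraries that held both classes. Sample numbers of 5C and DMSO did not pair samples: the deviations of same-numbered samples correlated at 0.103, -0.00753 and -0.0257 in SSC1-4 (7129 genes). Alternatives were another normalisation, test, filter, cell minimum, batch treatment, replicate unit, threshold and leaving out each library.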

Additional observations from a re-analysis of the deposited data

Results flagged for a closer look

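Of 70 groups of 4 to 10 libraries tested for a value far from the others, 4 held one, about as many as the 1 in 20 that chance gives. *Cdkn2a* in RPG1 was 45 CPM in day 18 replicate 3, against 11.4 to 21.5 CPM in the other 6 libraries. *Rbl1* in RPG3 was 72.1 CPM in day 12 replicate 2, a sum of 7 cells, against 11.1 to 20.2 CPM in the other 7. In the scTrio-seq2 SSC1-4 cells of 5C, *Ccnd1* was 146 CPM in sample 5 (15 cells) against 44.1 to 91.4 CPM in the other 7, and *Cdkn2a* was 35.8 CPM in sample 1 against 9.60 to 20.6 CPM in the other 7.

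The difference between 5C and DMSO in *Ccnd1* was not the same in the classes: the interaction of RPG3 with SSC1-4 had a log2 value of -3.75 (edgeR's quasi-likelihood test, adjusted p = 0.000352). *Ccnd1* was higher with 5C in SSC1-4 in 8 of 8 samples against each DMSO sample, whereas in RPG3 the 6 samples of 5C had 44.1 to 209 CPM and the 2 of DMSO 224 and 205 CPM. The DMSO samples of the 2 classes were different samples, so class and sample cannot be told apart here.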

How the results depend on the processing

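RPG4 had 2 libraries, with 7 UMIs of *Cdkn2a*, 47 of *Rb1*, 117 of *Rbl1* and 203 of *Cdkn1b* in all. Such counts limit the precision of these values. Of the fold changes of single genes recomputed under the alternatives, 2823 kept their direction and side of the threshold, 121 lost a call, 54 gained one and 1 turned: *Cdk6* in RPG3 against SSC1-4 was -0.28 (adjusted p = 0.803) with the library as a block over 2 shared libraries. Signs of values called in neither fit were not compared. Of the levels, taken as CPM of the total UMIs without TMM scaling, 109 stayed within 1 SD and 11 did not. For the lines, with 1 library each, the Poisson interval took the place of the SD. *Ccnd1* in ESC, for instance, was 359 CPM without TMM scaling, outside its interval of 381 to 402 CPM. All 27 D-type cyclin shares of classes with more than 1 library stayed within 1 SD. Of the shares of cells with a UMI, 289 moved with the depth of thinning while 131 did not.

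Counts of the 10 genes called moved as follows, and the cause was not tested. In RPG1 against SSC1-4 (1 gene called) the count was 2 with the DESeq2 Wald test and with at least 10 cells per sum, and 0 within batch B2, with sums per batch and day, with the library block and without it on the same libraries, and with an adjusted p below 0.01 and a natural-log change of at least 1 (the strict rule); leaving out libraries gave 0 to 1. In RPG2 (6 called) it was 3 on the libraries of the block without the block, and leaving out libraries gave 4 to 6. In RPG3 (7 called) it was 4 with the library block, 4 on its libraries without the block and 4 under the strict rule, and leaving out libraries gave 6 to 8. In RPG4 (7 called) it was 8 with the DESeq2 Wald test, and leaving out libraries gave 6 to 7. In fibroblast cells (1 called) it was 0 with the library block, 0 without it on the same libraries and 0 under the strict rule, and 1 without any single library. In early-pluripotent cells (0 called) it was 1 with the DESeq2 Wald test and 2 with at least 10 cells, and in meiotic cells (0 called) 1 with at least 10 cells; leaving out libraries gave 0 in both. In neural cells (2 called) it was 1 with DESeq2 size factors, at least 10 cells, only the 2 groups, batch as a covariate, batch B1, sums per batch and day, the library block and its libraries without the block, 4 with no fold limit, and 0 within batch B2 and under the strict rule. The 1 gene was *Ccne2* with at least 10 cells, *Ccnd1* with sums per batch and day and *Ccne1* on the libraries of the block with and without it. Leaving out neural libraries gave 0 (day 27 replicate 3) to 4 (day 27 replicate 2).

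In RPG2 against RPG1 (5 called) the count was 2 within batch B2 and 3 under the strict rule, and leaving out libraries gave 3 to 5. In RPG3 against RPG1 (5 called) it was 2 within batch B2 and 7 with the library block, and 5 without any single library. In RPG4 against RPG3 (3 called) it was 1 with only the 2 groups and 1 under the strict rule, and leaving out libraries gave 0 to 3, where a lone library is assumed to vary like the other groups. In SSC2 against SSC1 (1 called) it was 0 within batch B2, 2 with no fold limit and 0 under the strict rule. In SSC3 (1 called) it was 2 with at least 10 cells, sums per batch and day, the library block and no fold limit, and 0 within batch B2 and under the strict rule. In SSC4 (0 called) it was 1 with batch as a covariate, sums per batch and day and no fold limit. SSC clusters had more than 10 libraries each, and none was left out singly. For 5C against DMSO in SSC1-4 (3 called) it was 5 with at least 10 cells and 5 with only the 2 groups, and leaving out samples gave 2 to 3. The sample number as a replicate block gave 3 there, although these numbers did not pair the samples. In RPG1 (1 called) it was 2 with only the 2 groups and 0 under the strict rule, and leaving out samples gave 0 (DMSO sample 2) to 1. In RPG3 (1 called) it was 2 with the DESeq2 Wald test and 3 with at least 10 cells, and 1 without any single sample. No paired analysis was possible because 5C and DMSO shared fewer than 2 sample numbers in RPG1 and RPG3, nor for RPG4 against SSC1-4 and RPG2 against RPG1.

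Counts over all genes called moved by more than 1.5 times under some alternatives: from 757 to between 0 and 1192 in RPG1 against SSC1-4, from 6413 to between 2319 and 3102 in RPG2 against SSC1-4, from 9391 to between 2981 and 4581 in RPG3 against SSC1-4, from 1068 to between 0 and 4 in fibroblast against SSC1-4, from 248 to between 0 and 868 in early-pluripotent against SSC1-4, from 276 to between 0 and 699 in meiotic against SSC1-4, from 1475 to between 8 and 873 in neural against SSC1-4, from 5030 to between 1608 and 2841 in RPG2 against RPG1, from 7154 to between 1539 and 4174 in RPG3 against RPG1, from 1693 to between 993 and 1083 in RPG4 against RPG3, from 535 to between 47 and 1961 in SSC2 against SSC1, from 1541 to between 54 and 3344 in SSC3 against SSC1, from 1069 to between 0 and 2826 in SSC4 against SSC1, from 1126 to between 1714 and 2010 in 5C against DMSO in SSC1-4, from 477 to 798 in 5C against DMSO in RPG1, from 1264 to 2070 in 5C against DMSO in RPG3.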
